A study of Homo sapiens with 13 samples.

Results

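The genes of 35 aminoacyl-tRNA synthetases were examined for DNA-RNA hybrid signal in U2OS cells, a human osteosarcoma line. They were taken by name, with no threshold on a measured value, but the family was chosen with earlier results of these peak lists known. They comprise 19 genes of cytosolic enzymes and 16 genes of mitochondrial enzymes, the latter with symbols ending in 2. They belong to 19974 protein-coding genes on chromosomes 1 to 22 and X in RefSeq (GRCh38.p14, of which hg38, the build of the peaks, is an earlier release with the same chromosome positions). Hybrids had been mapped by DRIP-seq, in which sonicated genomic DNA is precipitated with S9.6, an antibody that binds DNA-RNA hybrids. Before that, siRNA was delivered as a control (siCtrl, genotype labelled WT), against REXO4 (siREXO4) or against RNaseH1 (siRNaseH1). The study addresses whether both proteins process hybrids at shared places. Each transfection had 3 S9.6 libraries, and the deposited peaks carry the name of the merged libraries. A single input for each transfection and an IgG control of the siCtrl cells were not analysed here. The 3 merged peak lists therefore carry no replicate error and allow no test between transfections. The sources used here do not state the siRNA sequences or the time after transfection, and a peak does not measure how far a knockdown went.

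A gene was counted as holding a peak when at least 1 bp of the peak lay in the gene span or within 2 kb on either side. On chromosomes 1 to 22 and X the lists held 4458 siCtrl, 12687 siREXO4 and 20954 siRNaseH1 peaks, so a gene had more chances of a peak after either knockdown. Each peak has a fold enrichment from the authors, its summit over the local background. It was used to rank peaks within 1 list and, in an alternative count, as a limit of at least 5. Where folds of different lists stand side by side, they are no measure of a difference between lists. For values across lists, the number of fragments stacked at each summit was recovered from the deposited fold and p-value. The genome-wide background came to 1.28 fragments for siCtrl, 1.41 for siREXO4 and 1.36 for siRNaseH1, and at that background the weakest called peak had 7 fragments in each list. Sequencing depth itself is not given. Ranges in parentheses after fragments are exact 95% Poisson intervals. They hold only the counting error, so differences between cultures are outside them.

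Aminoacyl-tRNA synthetases attach each amino acid to its tRNA before the tRNA enters the ribosome. Separate nuclear genes encode most of the cytosolic and the mitochondrial enzymes, while GARS1 and KARS1 supply both compartments. A group of the cytosolic enzymes, including EPRS1, IARS1, KARS1, LARS1, MARS1, QARS1 and RARS1, is held together in the multi-synthetase complex, and the others act outside it. Many cytosolic synthetase genes are targets of ATF4, the transcription factor of the amino acid response. A DNA-RNA hybrid, or R-loop, can form when a nascent transcript pairs again with its template strand, which is common near the starts and ends of transcribed genes.

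Of the 35 synthetase genes, 5 held a siCtrl peak, 20 a siREXO4 peak and 28 a siRNaseH1 peak. Over all protein-coding genes the shares were 12.0%, 33.7% and 39.2%, against 14.3%, 57.1% and 80.0% of the synthetase genes. Synthetase genes thus held siREXO4 and siRNaseH1 peaks more often than protein-coding genes as a whole, while the siCtrl share was near the background. The median gene span was 32.8 kb for the synthetases and 24.2 kb for all protein-coding genes, and a longer span offers more room for a peak. The lists held 6, 23 and 70 separate peaks at these genes. The median fold enrichment was 5.53 for the siREXO4 peaks and 5.68 for the siRNaseH1 peaks, beside 4.98 and 5.19 for all peaks at protein-coding genes. When every list was shortened to the 4458 peaks with the smallest p, the number of synthetase genes with a peak was 12 in siREXO4 and 14 in siRNaseH1. These are 34.3% and 40.0% of the 35 genes, beside 18.6% and 16.9% of all protein-coding genes at the same list length. The siCtrl count stayed at 5.

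**Figure D1:**
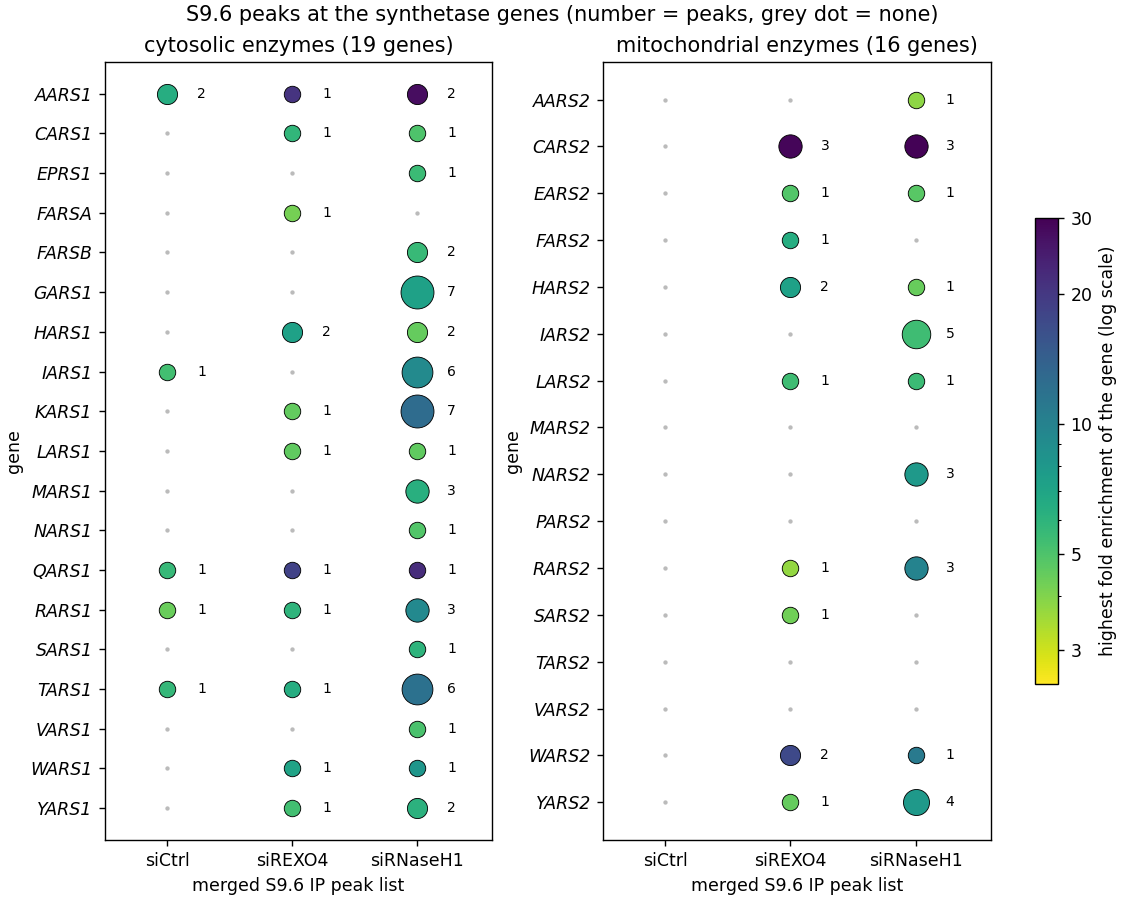
Peaks at each synthetase gene. Rows are genes (19 cytosolic left, 16 mitochondrial right), columns the 3 merged lists; the number and circle size give the peaks in the gene span or its 2 kb flanks, and the colour gives the highest fold enrichment (log scale). The siCtrl column is filled for 5 cytosolic genes and no mitochondrial gene, and the highest peak counts are the 7 siRNaseH1 peaks each of GARS1 and KARS1.

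A siRNaseH1 peak was found at 18 of the 19 cytosolic genes (94.7%) and at 10 of the 16 mitochondrial genes (62.5%). FARSA was the cytosolic gene without one. The siREXO4 counts were alike, with 11 cytosolic (57.9%) and 9 mitochondrial genes (56.2%). A siCtrl peak was found at 5 cytosolic genes and at no mitochondrial gene. The median span was 32.8 kb for the cytosolic and 28.4 kb for the mitochondrial genes. Relative to the length searched, the siRNaseH1 list held 5.83 peaks per 100 kb at cytosolic genes and 1.74 at mitochondrial genes, beside 1.45 over all protein-coding genes. FARS2 alone spans 522.0 kb, and without it the mitochondrial density was 2.88 per 100 kb. In the siREXO4 list the densities were 1.46 and 0.982 per 100 kb, and 1.5 for the mitochondrial genes without FARS2. At equal list length the siRNaseH1 counts were 9 cytosolic and 5 mitochondrial genes, and the siREXO4 counts 7 and 5. As shares of the 19 and 16 genes, these were 47.4% and 31.2% in siRNaseH1 and 36.8% and 31.2% in siREXO4, beside the 26.3% and 0% of siCtrl. Which list sets the classes furthest apart therefore depended on the list length: siRNaseH1 with the full lists and siCtrl with equal ones. The difference between the classes was not tested, since the genes were chosen with results of these lists known. HARS1 and HARS2 lie beside each other and share peaks, so the classes are not fully separate.

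**Figure D2:**
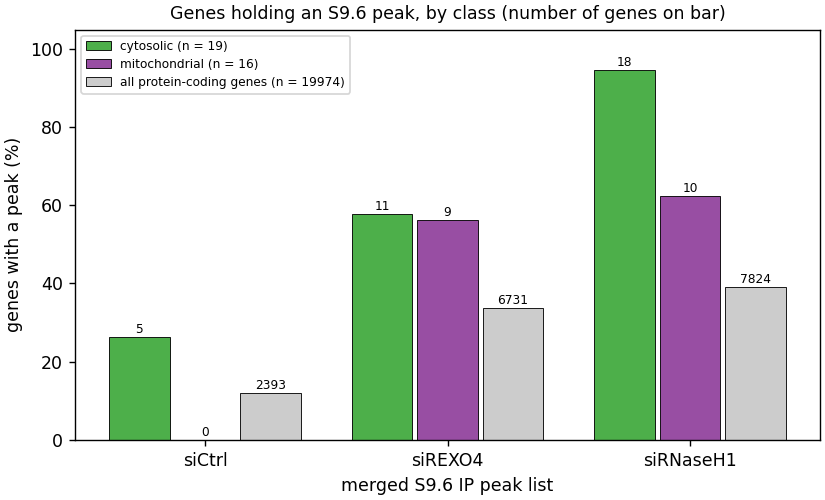
Share of genes (%) with a peak in each merged list, for 19 cytosolic synthetase genes, 16 mitochondrial synthetase genes and all 19974 protein-coding genes; the number of genes stands on each bar. The classes are close in siREXO4 (11 and 9 genes) and apart in siRNaseH1 (18 and 10 genes).

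The siREXO4 peaks of highest fold enrichment lay at CARS2, AARS1, QARS1 and WARS2. The first 3 also led the siRNaseH1 list, where KARS1 (12.62), a second CARS2 peak (12.57) and TARS1 (11.88) stood above WARS2. CARS2, which encodes the mitochondrial cysteinyl-tRNA synthetase, spans positions 110641410 to 110713522 of chromosome 13. The gene is on the minus strand and has annotated starts at 110706116 and 110706515, both inside the span, and peaks overlapped both start windows. There it had a siREXO4 peak of 1093 bp (110705395 to 110706487) with a fold enrichment of 28.86 and a siRNaseH1 peak of 1144 bp (110705359 to 110706502) with 29.46. The summits, 5 bp apart, had 88 fragments (70.6 to 108) in siREXO4 and 108 (88.6 to 130) in siRNaseH1, and no siCtrl peak lay there. They were nearest the start at 110706116, at 0.11 of the way along the span. Relative to each list's background these are 62.4 and 79.6 times. The intervals, 50.1 to 76.9 and 65.3 to 96.1, overlap.

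AARS1, the cytosolic alanyl-tRNA synthetase gene (chromosome 16, 70252298 to 70289506), held a peak at its start in all 3 lists. The siCtrl peak was 330 bp wide (70289225 to 70289554), with a fold enrichment of 6.37. The siREXO4 peak was 932 bp wide (70288796 to 70289727), with a fold of 20.67, and the siRNaseH1 peak 1055 bp wide (70288662 to 70289716), with 27.66. The summits, all within 71 to 79 bp after the annotated start, held 16 siCtrl, 72 siREXO4 and 121 siRNaseH1 fragments. Scaled to the background this was 12.5 times (7.17 to 20.4), 51.1 times (40.0 to 64.3) and 89.2 times (74.0 to 107). The 3 intervals do not overlap, and the order was siCtrl, siREXO4, siRNaseH1. The AARS1 start peak was therefore not a gained locus, but a siCtrl locus with more fragments in both knockdown lists.

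QARS1, the glutaminyl-tRNA synthetase gene of the multi-synthetase complex (chromosome 3, 49095932 to 49104757), showed the same order past its 3′ end. The siCtrl peak (49093580 to 49094101) had a fold enrichment of 5.70 and 19 fragments. The siREXO4 peak (49093086 to 49094460) had a fold of 18.32 and 71 fragments, and the siRNaseH1 peak (49093257 to 49094529) had 21.98 and 92 fragments. These were 14.9, 50.4 and 67.8 times the background. The siREXO4 interval, 39.3 to 63.6, overlaps that of siRNaseH1, 54.6 to 83.1, and both lie above that of siCtrl, 8.96 to 23.2. These peaks lay inside QRICH1, the neighbouring gene, and were counted for QARS1 through its 2 kb flank.

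WARS2, the mitochondrial tryptophanyl-tRNA synthetase gene (chromosome 1, 119031216 to 119140672), had a start peak in both knockdown lists and none in siCtrl. The siREXO4 peak (119140184 to 119140880) had a fold enrichment of 17.37 and 50 fragments, and the siRNaseH1 peak (119140194 to 119140728) had 10.91 and 53 fragments. The lower siRNaseH1 fold went with a local background of 3.95 fragments, against 1.94 in siREXO4. Scaled to the genome-wide background the values were 35.5 and 39.1, with overlapping intervals. The summits were 2 bp apart. The antisense gene WARS2-AS1 overlaps both peaks, and the lists carry no strand.

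Start windows, the 300 bases from 250 before to 50 after each RefSeq start, were found for 30 of the 35 genes, and not for AARS2, LARS1, VARS1, VARS2 and YARS1. For each gene with a start peak just described, the window of 1 start is printed in transcript direction. This shows the DNA at the starts with the peaks of highest siREXO4 fold. The summits themselves lay downstream of the windows, which end 50 bases after the start. They were 71 to 79 bp after the start at AARS1, 190 and 195 bp at CARS2, and 155 and 157 bp at WARS2. Parts of the AARS1 and WARS2 windows lie outside the peaks, with some of the marked AARS1 runs. All marked WARS2 runs lie outside the siRNaseH1 peak of that gene. Capitals mark runs of at least 4 G or at least 4 C, the latter being G runs on the opposite strand.
AARS1, chr16:70289457-70289756, minus strand: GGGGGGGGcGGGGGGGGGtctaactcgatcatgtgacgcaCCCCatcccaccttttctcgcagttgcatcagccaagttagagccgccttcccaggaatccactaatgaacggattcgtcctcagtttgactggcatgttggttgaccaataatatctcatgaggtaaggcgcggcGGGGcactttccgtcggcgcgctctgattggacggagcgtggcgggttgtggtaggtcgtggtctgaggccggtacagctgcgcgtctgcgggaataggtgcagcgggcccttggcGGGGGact
CARS2, chr13:110706067-110706366, minus strand: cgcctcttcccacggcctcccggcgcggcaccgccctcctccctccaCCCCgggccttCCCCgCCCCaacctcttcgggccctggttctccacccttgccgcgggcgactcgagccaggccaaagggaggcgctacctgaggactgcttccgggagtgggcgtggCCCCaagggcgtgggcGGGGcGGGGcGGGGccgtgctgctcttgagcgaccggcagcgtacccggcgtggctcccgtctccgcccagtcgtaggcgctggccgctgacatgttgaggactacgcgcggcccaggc
WARS2, chr1:119140604-119140903, minus strand: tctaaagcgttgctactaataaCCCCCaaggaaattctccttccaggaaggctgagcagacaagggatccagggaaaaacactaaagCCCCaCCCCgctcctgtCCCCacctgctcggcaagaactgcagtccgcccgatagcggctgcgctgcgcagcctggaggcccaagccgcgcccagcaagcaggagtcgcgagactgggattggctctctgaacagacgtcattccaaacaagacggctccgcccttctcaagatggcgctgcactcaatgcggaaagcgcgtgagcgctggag
The printed CARS2 window is 74.7% G and C with 34 CpG dinucleotides, and holds 3 G runs on the strand shown and 4 on the other. The window of the other CARS2 start (110706466 to 110706765), which the peaks reach only at its downstream edge, is 56.0% G and C with 9 CpG. It has 9 G runs in transcript direction and 0 on the opposite strand. The AARS1 window is 61.0% G and C with 24 CpG and has 4 G runs on the strand shown and 1 on the other. The WARS2 window is 59.7% G and C with 20 CpG, and its 4 G runs are all on the opposite strand. G runs occurred on at least 1 strand in 93.5% of all 22132 windows of protein-coding genes, and in 34 of the 39 windows of synthetase genes. The median G and C share was 62.0% over the synthetase windows and 62.3% over all windows. It was 63.8% over the 16 synthetase windows with a peak in any list and 60.7% over the 23 without. Over all protein-coding windows with a peak it was 68.7% for siCtrl, 68.0% for siREXO4 and 68.3% for siRNaseH1. A higher share at windows with a peak is thus not particular to the synthetase genes.

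A peak overlapped a start window of 1 of the 30 genes in siCtrl, of 11 in siREXO4 and of 9 in siRNaseH1. Over all 15812 protein-coding genes with a start window the shares were 1.95%, 17.1% and 17.6%, so both knockdown counts lie above the background. In siREXO4 the 11 genes were AARS1, CARS1, HARS1, RARS1, TARS1 and WARS1 among the cytosolic and CARS2, EARS2, FARS2, HARS2 and WARS2 among the mitochondrial enzymes. In siRNaseH1 they were AARS1, HARS1, SARS1, TARS1 and WARS1, and CARS2, EARS2, HARS2 and WARS2. The classes were thus close at starts, with 6 of 16 cytosolic and 5 of 14 mitochondrial genes in siREXO4, and 5 and 4 in siRNaseH1. Of all separate peaks at the 30 genes, 10 of 21 siREXO4 peaks (47.6%) overlapped a start window, and 8 of 65 siRNaseH1 peaks (12.3%). The same shares over protein-coding genes were 30.8% of 7992 and 17.2% of 14809 peaks. Most siRNaseH1 peaks, 48 of 65 (73.8%), lay inside the genes away from the start windows, against 7 of 21 in siREXO4 (33.3%). This share was not counted over all protein-coding genes, where the lists also differed in the share at starts. Whether it is particular to the synthetase genes is therefore not known. Start peaks were also the more enriched at these genes, with median folds of 6.80 in siREXO4 and 8.38 in siRNaseH1, against 4.30 and 5.57 inside. The same medians over all protein-coding genes were not computed.

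**Figure D3:**
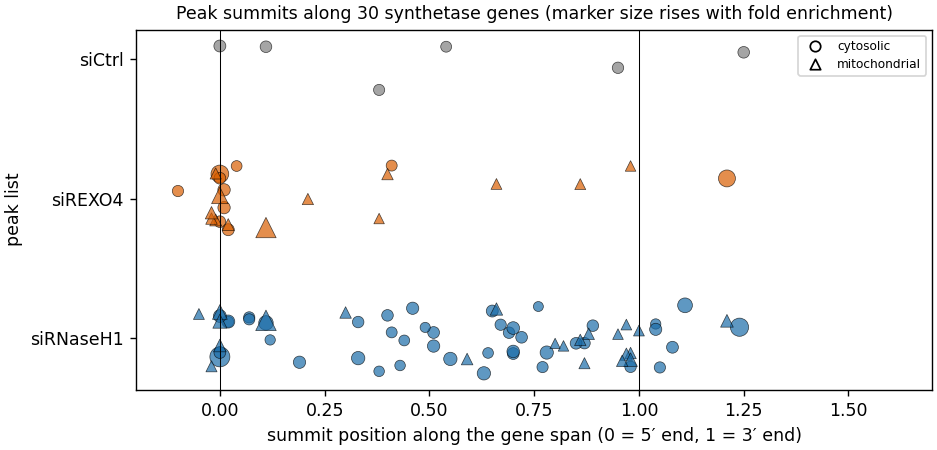
Position of each peak summit along the gene span (0 is the 5′ end, 1 the 3′ end) for the 30 synthetase genes with a known start, by peak list. Circles are cytosolic and triangles mitochondrial genes, marker size rises with fold enrichment, and vertical spread is only for visibility. The siREXO4 summits gather at 0, while most siRNaseH1 summits lie between 0 and 1.

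Among the less enriched start peaks, those of TARS1, WARS1, the HARS1 and HARS2 pair and EARS2 were found in both knockdown lists. TARS1, for threonine (chromosome 5, 33440696 to 33468091), had the same summit position in both lists, with 18 fragments in siREXO4 and 31 in siRNaseH1. WARS1, the cytosolic tryptophan enzyme (chromosome 14, 100333790 to 100376327), had 21 and 29 fragments, with folds of 7.13 and 8.12, and its siRNaseH1 peak also reached WDR25. HARS1 and HARS2, the histidine enzymes, are transcribed away from each other on chromosome 5, with starts at 140691370 and 140691455. One siREXO4 peak (140690912 to 140691467, fold 7.25, 19 fragments) and 1 siRNaseH1 peak (140690797 to 140691385, fold 4.44, 17 fragments) overlapped the windows of both. They cannot be assigned to either gene. The EARS2 peaks, with folds of 4.90 and 4.75, had summits at -484 and -649 bp from the start of this mitochondrial glutamyl-tRNA synthetase gene and reached into UBFD1. YARS1, for tyrosine, had peaks of 5.31 and 6.11 at the upper boundary of its span (chromosome 1, 32775239 to 32817358), where S100PBP also lies.

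Start peaks of 4 genes came from 1 list only. In siREXO4 these were RARS1 (fold 5.98, summit 89 bp after the start), CARS1 (5.82, 180 bp after, with the peak just reaching the window) and FARS2 (6.46, summit at -516 bp from its nearest start and inside LYRM4). In siRNaseH1 it was SARS1, the seryl-tRNA synthetase gene, with a fold of 6.02, 18 fragments and a summit 63 bp after the start. All these summits had 14 to 19 fragments, which is not far above the weakest called peaks, and absence from the other list was not tested.

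A sequence that the choice of genes did not use was found in some of the start windows. TGATGNAA, the letters of the amino acid response element bound by ATF4 with C/EBP partners, was searched on both strands. It occurred in 8 of the 39 synthetase windows (20.5%), against 2.7% of all protein-coding windows. The match lay in 7 of the 21 cytosolic windows, from 7 genes, and in 1 of the 18 mitochondrial windows, that of YARS2. Of the 8 matches, 6 read TGATGCAA on 1 of the strands. Of the cytosolic matches, 5 are shown in capitals in transcript direction, with the bases around them, so that the element can be seen beside the start.
AARS1, chr16, first base at -187: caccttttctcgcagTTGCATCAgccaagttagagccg
CARS1, chr11, first base at -2: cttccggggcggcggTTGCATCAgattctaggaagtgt
GARS1, chr7, first base at -33: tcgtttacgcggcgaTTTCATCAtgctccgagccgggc
NARS1, chr18, first base at 14: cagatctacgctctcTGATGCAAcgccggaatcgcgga
TARS1, chr5, first base at 2: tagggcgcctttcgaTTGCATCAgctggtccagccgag
Positions count from 0 at the annotated start. Of these 5, all but the AARS1 match lay within 33 bases of the start. A peak in any list overlapped the window with the match at AARS1, CARS1 and TARS1, and did not at GARS1 and NARS1. The CARS1 peak reached only the downstream edge of its window and did not cover the match. At AARS1 the match lay under both knockdown peaks but outside the siCtrl peak. Over all 8 windows with a match, a peak overlapped 3. The match occurred in 18.8% of the synthetase windows with a peak and in 21.7% of those without. Over all protein-coding windows, the match occurred in 2.73% of those with a siCtrl peak, 1.03% with a siREXO4 peak and 1.18% with a siRNaseH1 peak. A match describes letters and not a bound site.

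GARS1, IARS1, KARS1 and TARS1 among the cytosolic and IARS2 and YARS2 among the mitochondrial genes held 4 or more siRNaseH1 peaks each. That is 6 of 35 genes, against 8.27% of all protein-coding genes, and this limit was set after the values were seen. None of these genes held more than 1 peak in siCtrl or in siREXO4. The siRNaseH1 peaks at these genes were 266 to 727 bp wide.

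GARS1, the glycyl-tRNA synthetase gene (chromosome 7, 30594735 to 30634033), held 7 siRNaseH1 peaks and none in the other lists. Their summits ran over 28.8 kb, from 0.12 to 0.85 of the way along the gene, with a median gap of 4657.5 bp. Their folds were between 3.43 and 7.21 and their fragments between 12 and 24, and none lay at a start window. KARS1, for lysine (chromosome 16, 75627724 to 75647665), also held 7, with folds from 4.27 to 12.62 and 14 to 32 fragments. Its highest peak (75625251 to 75625724) lay past the 3′ end and met the 2 kb limit by 1 bp. The 1 siREXO4 peak of KARS1 (fold 4.53, 10 fragments) overlapped the siRNaseH1 peak of 4.27 inside the gene.

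IARS1, the isoleucyl-tRNA synthetase gene (chromosome 9, 92210207 to 92293697), held 6 siRNaseH1 peaks within 11.2 kb, between 0.63 and 0.76 of the way along. The highest (92241152 to 92241688) had a fold of 9.26 and 27 fragments. Its siCtrl peak (92213890 to 92214252, fold 5.33, 13 fragments) lay elsewhere, near the 3′ end, and was in neither knockdown list. TARS1 held 6, from the start to 0.89 of the gene. The highest TARS1 peak (33443482 to 33443966, fold 11.88, 27 fragments) overlapped the siCtrl peak of the gene (33443562 to 33443827, fold 5.71, 12 fragments). IARS2, the mitochondrial isoleucine enzyme (chromosome 1, 220094132 to 220148041), held 5 peaks in the last part of the gene, from 0.82 to 0.98, with folds of 3.78 to 5.39. YARS2, for mitochondrial tyrosine (chromosome 12, 32746544 to 32755897), held 4 with folds of 5.68 to 7.93. The highest of them lay in DNM1L, past the 3′ end of YARS2.

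**Figure D4:**
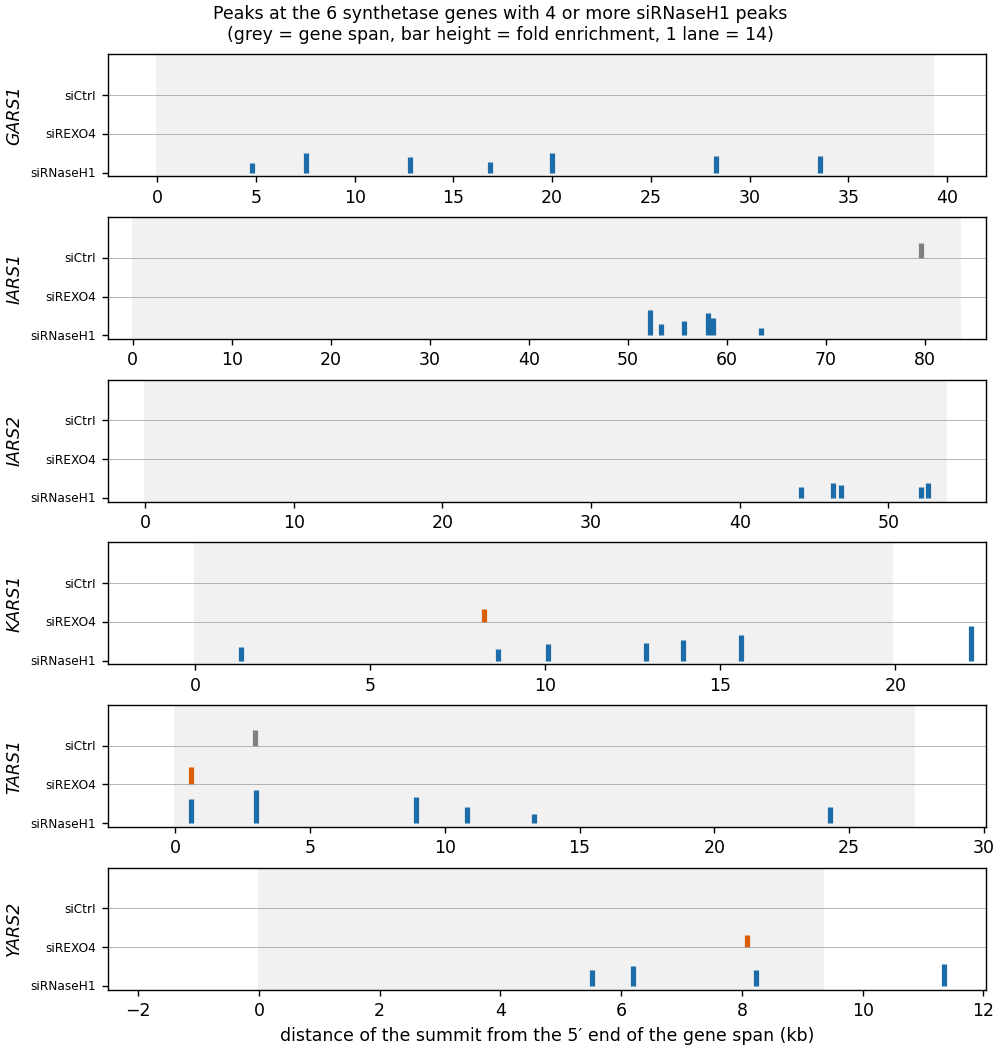
Peaks at the 6 synthetase genes with 4 or more siRNaseH1 peaks, by distance of the summit from the 5′ end of the span (kb). Grey marks the span, each list has a lane, and bar height is the fold enrichment (a full lane is 14). GARS1 and IARS2 have bars in the siRNaseH1 lane only, and the IARS1 and IARS2 bars stand in a short stretch toward the 3′ end.

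The other genes of the multi-synthetase complex had fewer peaks. RARS1, for arginine (chromosome 5, 168486471 to 168519301), held 3 siRNaseH1 peaks, with folds of 9.30, 6.98 and 6.79. The RARS1 peak of 9.30 (168504220 to 168504901, 25 fragments) overlapped the siCtrl peak of the gene (168504226 to 168504493, fold 4.39, 9 fragments). At MARS1, for methionine, 2 of the 3 siRNaseH1 peaks lay in its downstream neighbour DDIT3, with folds of 6.24 and 3.37, and the third inside MARS1 had 3.78. EPRS1, which joins the glutamate and proline activities in 1 protein, held 1 siRNaseH1 peak of 5.52 inside its 77.9 kb span. LARS1, for leucine, held a peak in both knockdown lists at the same place, with folds of 4.57 and 4.59 and 10 and 16 fragments. All 7 genes of the complex thus held a siRNaseH1 peak and 4 a siREXO4 peak, against 11 and 7 of the 12 other cytosolic genes. QARS1 enters both counts of the complex, and VARS1 the 11, only through a flank peak that overlaps a neighbouring gene.

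Among the remaining cytosolic genes, FARSB, a subunit of the phenylalanine enzyme, held 2 siRNaseH1 peaks near its 3′ end (folds 5.62 and 5.37). FARSA, the other subunit, held a single siREXO4 peak of 4.21, 421 bp after its start, where FARSA-AS1 also lies. NARS1, for asparagine, held 1 siRNaseH1 peak of 4.93, and VARS1, for valine, 1 of 5.09 in the flank and inside VWA7. A second siCtrl peak of AARS1 inside the gene (70275307 to 70275572, fold 4.88, 12 fragments) was in neither knockdown list. Of the 6 siCtrl peaks at synthetase genes, 2 were also covered in siREXO4 and 4 in siRNaseH1, against 41.7% and 46.3% of all 4458 siCtrl peaks.

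Of the mitochondrial genes not yet described, RARS2, for arginine (chromosome 6, 87513938 to 87589987), had the highest siRNaseH1 fold, 9.92 with 29 fragments near its 3′ end (87515126 to 87515632). The overlapping siREXO4 peak of RARS2 had 3.74 and 8 fragments. NARS2, for asparagine, held 3 siRNaseH1 peaks, of which that with the highest fold, 7.87, lay 425 bp after the start. CARS2 held a further siRNaseH1 peak of 12.57 and 2218 bp (110713113 to 110715330) at the upper end of its span, where ING1 lies. In siREXO4 the same stretch held 2 peaks, of 6.34 and 5.53. LARS2 held 1 peak in each knockdown list at different places (5.40 and 5.52), SARS2 a siREXO4 peak of 4.30 and AARS2 a siRNaseH1 peak of 3.83. MARS2, PARS2, TARS2 and VARS2 held no peak in any list. With spans of 3.03 kb for MARS2 and 7.63 kb for PARS2, these include the shortest 2 genes of the family. VARS1 and VARS2 lie in the major histocompatibility region, which hg38 also carries as alternate contigs. Peaks on those contigs were not assigned to genes.

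The 2 kb limit set some of these counts. The nearest peaks left out lay at IARS1, 2046 bp from the span in siCtrl (fold 3.86) and 2061 bp in siRNaseH1 (5.15), and at CARS2, 2359 bp away in siRNaseH1 (6.40). The farthest counted ones lay 2000 bp from KARS1 and 1978 bp from MARS1, both in siRNaseH1.

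Whether both knockdowns add peaks at the same place was described with gained peaks, those of a knockdown list that no siCtrl peak overlaps. A siREXO4 gained peak was found at 18 synthetase genes (9 cytosolic, 9 mitochondrial) and a siRNaseH1 gained peak at 27 (17 and 10). Over all protein-coding genes the shares were 31.3% and 37.6%. A peak gained in both, a siREXO4 gained peak overlapped by a siRNaseH1 one, was found at 12 of the 35 genes, 6 in each class, against 20.8% of protein-coding genes. Both gained sets rest on the same siCtrl list. These genes were CARS2, WARS2, HARS1 with HARS2, WARS1, TARS1, YARS1, EARS2, LARS1, KARS1, YARS2 and RARS2. At a fold enrichment of at least 5 in every list, 5 of the 35 genes held one, a share close to the 13.1% of protein-coding genes. Of all 23 siREXO4 peaks at synthetase genes, 15 (65.2%) overlapped a siRNaseH1 peak, and 14 of the 70 siRNaseH1 peaks (20.0%) overlapped a siREXO4 peak. Over the whole lists these shares were 54.2% and 32.7%.

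The 13 pairs of overlapping gained peaks had summits a median of 153 bp apart, and 6 pairs had them within 100 bp. The summit stood higher over the background in siRNaseH1 than in siREXO4 in all but 2 pairs. The exceptions were the HARS1 and HARS2 start (13.5 in siREXO4 and 12.5 in siRNaseH1) and EARS2 (17.0 and 16.9). Among the 13, the widest ratio was at RARS2, with 5.68 and 21.4 times the background. The Poisson intervals were apart only at RARS2 and in the 2 CARS2 pairs at ING1. In all other pairs they overlapped. Both CARS2 pairs at ING1 contain the same siRNaseH1 peak (110713113 to 110715330). Over the whole lists the median summit had 14 fragments in siREXO4 and 16 in siRNaseH1. How often siRNaseH1 stood higher over all overlapping gained peaks was not computed, so the order is not shown to be particular to these genes.

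**Figure D5:**
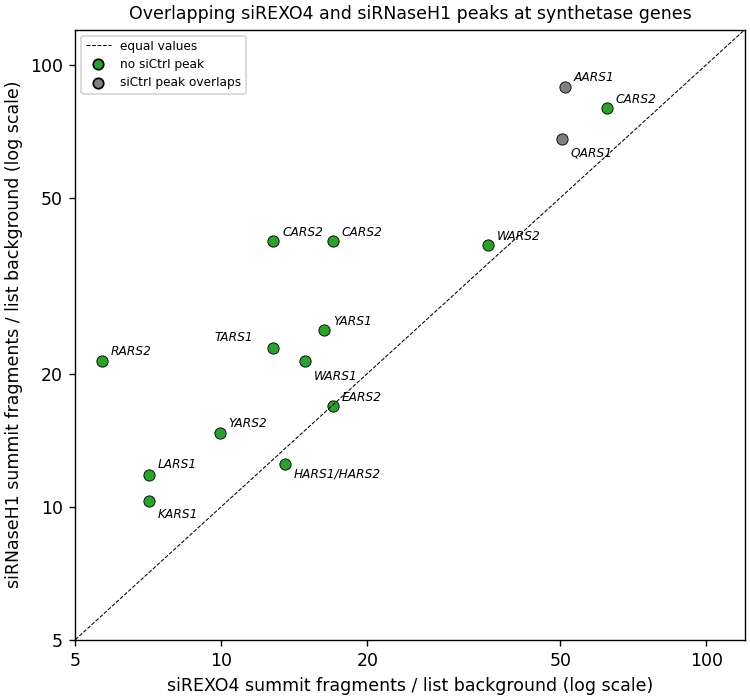
Overlapping siREXO4 and siRNaseH1 peaks at synthetase genes, by summit fragments divided by the background of their own list (both axes logarithmic). Each of the 15 points is a pair of peaks, grey where a siCtrl peak overlaps (AARS1 and QARS1) and green where none does, and the dashed line marks equal values. CARS2, AARS1, QARS1 and WARS2 stand at the upper right, and 2 points, HARS1 with HARS2 and EARS2, lie on or just below the line.

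Other genes of tRNA charging were counted in 5 lists with 32 genes in all. Of these, 5 held a siCtrl peak, 12 a siREXO4 peak and 21 a siRNaseH1 peak, against the background shares of 12.0%, 33.7% and 39.2% given above. Of the 3 scaffold proteins of the multi-synthetase complex, 2 held a peak in each knockdown list. The highest was EEF1E1, with folds of 4.72 in siCtrl, 9.16 in siREXO4 and 12.67 in siRNaseH1. EEF1A1 and TUFM, the elongation factors that deliver charged tRNA in the cytosol and in mitochondria, both held peaks in both knockdown lists, up to 7.12 and 9.04 at EEF1A1. Of 9 accessory charging enzymes, 3 held a siREXO4 and 5 a siRNaseH1 peak, with the highest folds at PSTK (4.81) and GATC (8.4). Of 8 genes of tRNA end processing, 3 and 6 did, led by TRNT1 (5.81), which adds the terminal CCA, and TRMT10C (14.54), a subunit of mitochondrial RNase P. Of 10 amino acid response genes, 2 and 6 did, and ATF4 itself had the highest fold in each list, 4.65 in siCtrl, 8.21 in siREXO4 and 13.78 in siRNaseH1. DDIT3 is among these genes, and its siRNaseH1 peaks are the same ones that were counted for MARS1.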

How the data were processed

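DRIP-seq peaks of U2OS cells were analysed from 3 deposited lists, 1 per transfection, which per the labels come from 3 merged S9.6 libraries each. Per the submitters' processing notes, peak calling involved MACS2 2.1.0.20150731 and hg38, and the other tools were HISAT2 2.2.1, Trim Galore 0.6.10, deepTools 3.5.1, SAMtools 1.17 and Cufflinks, with no roles or options. The sources used here do not state the control library or how duplicate and repeat reads were handled. The deposited columns are a fold enrichment (ratio), −log10 p, −log10 q and a score, and on chromosomes 1 to 22 and X every deposited −log10 q was at least 1.32.

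Fragments (x) and background (b) at a summit were solved from fold = (x + 1) / (b + 1) and the upper Poisson tail. Every peak with −log10 p below 300 gave a whole x within 0.001 in −log10 p. Alternatives changed the flank, the overlap, the threshold, the list length, the classes and the definition of gain. Members, classes and companion lists were chosen with earlier results of these data known. The fuller descriptions are of the 6 members of highest fold per list and of members with a siCtrl peak or a peak gained in both. Some peaks of these members are given by fold or by fragments alone, or are left out. Members without peaks and the companion gene of highest fold per list are named, and other members have shorter values. Gene spans, starts and sequences are from RefSeq (GRCh38.p14). Some sequence matches are not reported here. Computation used SciPy 1.17.1, pandas 2.3.3, NumPy 2.4.6 and Matplotlib 3.10.9 under Python 3.11.15. On simulated data, the code recovered all 150 planted genes with a siREXO4 peak and all 500 simulated summits.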

Additional observations from a re-analysis of the deposited data

Results flagged for a closer look

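Peaks on the alternate contigs of chromosome 6 were outside the counts by gene. Of all peaks on all contigs, they numbered 14 of 4625 in siCtrl, 112 of 13157 in siREXO4 and 143 of 21574 in siRNaseH1. Such contigs include other versions of the region that holds VARS1 and VARS2, but whether each counted contig covers it was not checked. Which gene each such peak belongs to was not determined, so the counts of 1 peak at VARS1 and 0 at VARS2 cover the main chromosome only.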

How the results depend on the processing

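Of 126 recomputed counts, 108 stayed within 1.5 times the reported one and 18 did not. With lists cut to equal length, the genes with a peak were 12 in siREXO4 and 14 in siRNaseH1. They were 7 and 9 for cytosolic and 5 and 5 for mitochondrial genes. Gained peaks were then at 10 and 11 genes, and peaks gained in both at 5. The shares of protein-coding genes with a gained peak at this list length are not given here. Whether these gained counts lie above the background is therefore not known. At a fold of at least 5, siREXO4 peaks were at 13 genes (5 mitochondrial), siREXO4 gained peaks at 11 and peaks gained in both at 5. Only the last has a background share at this threshold, 13.1% of protein-coding genes, which the 5 of 35 genes are close to. At a −log10 q of at least 5, siCtrl peaks were at 3 genes, all cytosolic. Within 2 kb of a gene boundary they were at 2, both cytosolic. With a 5 kb flank, 1 mitochondrial gene held a siCtrl peak, against 0. The alternatives with no flank, a larger overlap of the peak, the summit inside, shared peaks left out, GARS1 and KARS1 left out, or another definition of gain moved no count by more than 1.5 times. The counts at start windows and their alternatives were added after the data were seen. No paired analysis was possible because the replicates of each transfection are merged in the peak lists, and for the same reason no library could be left out. Weak peaks limit the counts, since siCtrl peaks at these genes had 9 to 19 fragments, close to the fewest called.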
